A study of Homo sapiens with 24 samples.

Results

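Small nucleolar RNAs and small Cajal body RNAs were followed through 24 time points of a K562 culture, and 80 of the 12285 genes in the table carried the gene type snoRNA or scaRNA in GENCODE 29. K562 is an established human leukaemia line with erythroid features. Its cells were separated by size with centrifugal elutriation, so that the culture started close to synchrony, and were sampled every 2 h from 0 to 46 h in RPMI medium with bovine calf serum and antibiotics. Each time point is 1 sample of total RNA, and no time point has a replicate. Members were classed by gene symbol: 41 members were box C/D RNAs (SNORD), 24 were box H/ACA RNAs (SNORA), 4 were Cajal body RNAs (SCARNA) and 11 had a symbol of neither kind. GENCODE 29 holds 992 genes of these 2 types, so most of them are not in the table, which lists genes at or above 1 FPKM (fragments per kilobase, scaled to the size of the library) at 12 or more time points. The statements below therefore concern members with enough signal to pass that minimum.

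Small nucleolar RNAs guide chemical changes of other RNAs. Box C/D RNAs pair with ribosomal RNA and direct the methylation of the ribose by fibrillarin, and box H/ACA RNAs direct the conversion of uridine to pseudouridine by dyskerin. Small Cajal body RNAs do the same for the spliceosomal small nuclear RNAs, and a few members, such as SNORD14A, SNORD22 and SNORA73B, are needed for cutting the precursor of 18S ribosomal RNA. In human cells nearly all are excised from introns of host genes, many of which encode ribosomal proteins or are spliced RNAs known for little else.

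The sequences of 8 members on which the results turn are shown first, from the GENCODE 29 transcripts, 5′ to 3′ as DNA letters of the RNA strand. Capitals mark box C (TGATGA starting in the first 20 bases), box D (CTGA starting in the last 20 bases) or, in SNORA73B, the ACA that lies 3 bases before the 3′ end.

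SNORD83A: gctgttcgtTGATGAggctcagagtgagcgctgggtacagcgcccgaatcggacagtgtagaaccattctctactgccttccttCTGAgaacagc
SNORD4A: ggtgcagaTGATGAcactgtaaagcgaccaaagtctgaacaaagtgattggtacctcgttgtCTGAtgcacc
SNORD102: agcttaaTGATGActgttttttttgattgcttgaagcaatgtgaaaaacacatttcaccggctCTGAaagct
ENSG00000201882: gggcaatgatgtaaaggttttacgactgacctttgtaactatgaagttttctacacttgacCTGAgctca
ENSG00000273885: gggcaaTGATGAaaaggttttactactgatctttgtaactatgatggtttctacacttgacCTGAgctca
SCARNA7, bases 1 to 60: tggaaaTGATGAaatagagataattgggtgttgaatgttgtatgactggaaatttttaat
SCARNA7, bases 271 to 330: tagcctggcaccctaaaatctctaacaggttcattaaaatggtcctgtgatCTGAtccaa
SNORA73B: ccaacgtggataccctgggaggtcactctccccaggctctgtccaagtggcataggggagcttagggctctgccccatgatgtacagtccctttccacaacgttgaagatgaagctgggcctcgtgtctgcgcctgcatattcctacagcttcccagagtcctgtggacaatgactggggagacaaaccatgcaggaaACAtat
ENSG00000238832: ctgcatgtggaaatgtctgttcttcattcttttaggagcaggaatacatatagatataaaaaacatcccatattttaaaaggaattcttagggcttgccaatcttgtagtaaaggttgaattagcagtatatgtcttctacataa

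SNORD83A and SNORD4A are nested in the ribosomal protein genes RPL3 (chromosome 22) and RPL23A (chromosome 17), and SNORD102 in RPL21 (chromosome 13). ENSG00000201882, in EIF1AX on the X chromosome, and ENSG00000273885, in CEP295 on chromosome 11, have the same Rfam family name and share 65 of 70 bases (92.9%). ENSG00000201882 lacks the full box C letters that ENSG00000273885 carries. SCARNA7 lies in KPNA4 on chromosome 3, SNORA73B in SNHG3 on chromosome 1 and ENSG00000238832 in BCAP29 on chromosome 7. No coordinates are given, because the table was made on GRCh37 and the annotation used here is on GRCh38.

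The boxes followed the class symbols. Both box C and box D were found in 30 of 41 SNORD members, and 18 of 24 SNORA members held the ACA together with an H box (ANANNA) in the middle of the RNA. Of 14761 other GENCODE transcripts in the members' length range, 0.0745% held box C and box D in these windows and 1.02% held the H and ACA pair. SCARNA7 and SCARNA12 held boxes C and D, and SCARNA22 and ENSG00000238832 held H and ACA. The ACA of ENSG00000238832 is left in small letters above, because ACA was marked only in SNORA members. A match is a description of the letters only.

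The members were short and mostly low. Box C/D members had a median length of 75 bases (64 to 237) and box H/ACA members one of 134 bases (122 to 272). The median over a member's 24 time points ran from 0.524 FPKM (SNORD36C) to 80.4 FPKM (ENSG00000273885), with a median of 3.18 FPKM in box C/D and 2.27 FPKM in box H/ACA. Only 16 members averaged 10 FPKM or more, and the 5 with the highest means held 40.7% of the summed mean level. In FPKM, which is per length, the box C/D median stood above the box H/ACA median at 22 of 24 time points. A given FPKM rests on fewer fragments in a shorter RNA, so this order need not hold in fragments. In box C/D, SNORD4A had the highest median (70.2 FPKM), ahead of SNORD36A (37.6 FPKM), SNORD104 (31.2 FPKM), SNORD99 (23.4 FPKM) and SNORD48 (19.9 FPKM), which is widely used to normalise small RNA assays. In box H/ACA, SNORA73B led with 27.1 FPKM, followed by SNORA33 (9.27 FPKM), SNORA26 (9.25 FPKM), SNORA20 (5.49 FPKM) and SNORA71B (4.38 FPKM). SNORA33 and SNORA26 did not differ beyond their spread over time: SNORA33 ranged from 4.63 to 13.7 FPKM and SNORA26 from 3.76 to 17.7 FPKM in the 22 samples left without 16 h and 18 h. The heat map of levels by time point shows the order within each class and the dark columns at 16 h, 18 h and, for box C/D, 32 h.

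**Figure D1:**
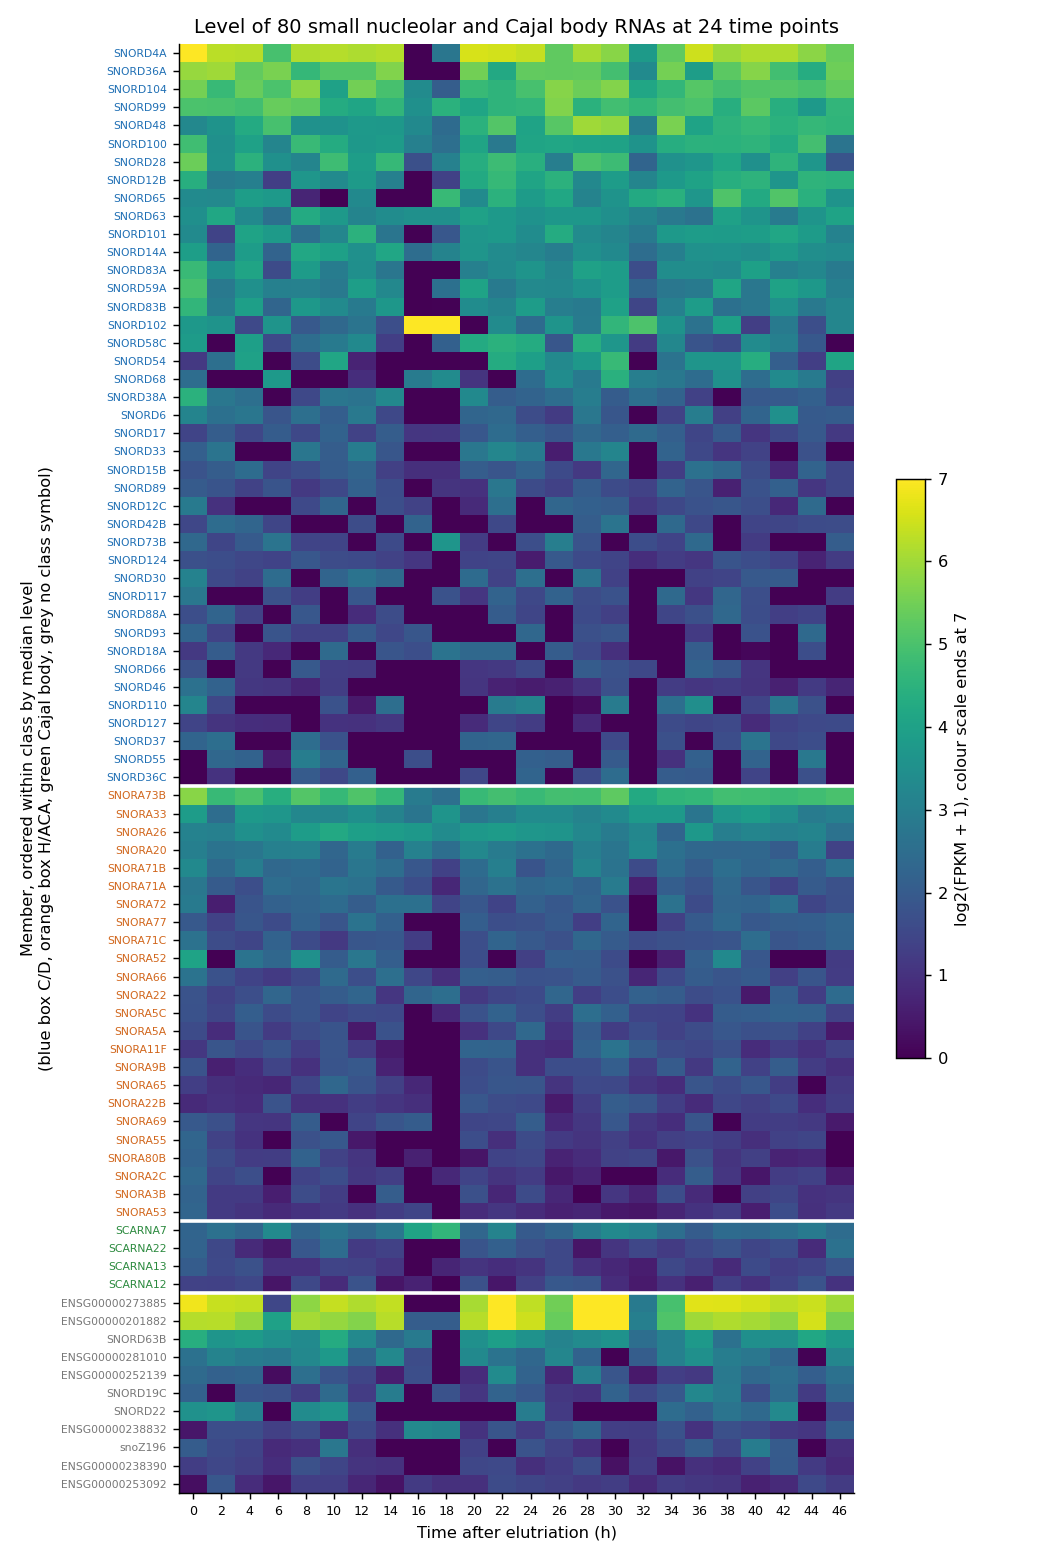
Level of each of the 80 members (rows, ordered by median within class, symbols coloured by class) at 24 time points (columns, hours after elutriation), as log2(FPKM + 1). Dark columns stand at 16 h and 18 h in all classes, where SNORD102 and SCARNA7 are the bright exceptions.

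Exact zeros and host reads set how far single values can be read. Of the 1920 member values, 177 (9.22%) were listed at 0, against 0.193% of all values in the table, and 53 members had at least 1 zero. SNORD37 was listed at 0 at 12 time points, SNORD66 and SNORD93 at 10, SNORD42B at 9, and SNORD30, SNORD88A and SNORD117 at 8. A further 65 values in 18 members lay above 0 but under 0.0001 FPKM, which is less than any whole fragment can give. Of those 18 members, 17 share a stretch of 50 bases with a transcript of another gene, as 29 of the 80 members do. In all, 32 members lie in an exon of another gene on the same strand, 20 of them box C/D and 5 box H/ACA. Of these 32, 9 gave whole fragments as described next, 15 did not and 8 were too long to judge. The 15 all share a 50-base stretch with another transcript, and their levels are uncertain. Whether a fragment came from the mature small RNA, from its precursor or from an unspliced host also cannot be told apart in this table.

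For the short members the number of fragments behind a value could be read from the table. The values of 49 other RNAs of up to 105 bases were scaled to their length less 50 bases and divided by a step per sample. Of 923 low values, 88.9% then lay within 0.05 of a whole number. The steps and the 50 bases were chosen for a high share in these same values, so the share has no simple chance level. With other lengths taken off, refitted in the same way, the mean share over samples was as low as 31.3% (40 bases). The members were not used in that choice. Of the 45 members up to 105 bases, 30 gave whole fragments in the same units, including all 26 that share no 50-base stretch with another gene. The 15 that did not, among them SNORD102, SNORD36A, SNORD68, SNORD83B and ENSG00000273885, share a 50-base stretch with a host exon or another transcript. The 30 members together held 5912 fragments over 24 time points. The median value rested on 3 fragments, and 75.1% of values rested on fewer than 10. Summed over the 30 members, 26 fragments were counted in the 16 h sample and 33 in the 18 h sample. The 32 h sample had 69 and the 6 h sample 171, and the remaining 20 samples had between 181 and 444. In a 70-base RNA, 1 fragment was worth 3.16 FPKM at 16 h and 3.15 FPKM at 18 h, and between 1.22 and 2.39 FPKM elsewhere, with the highest of these at 32 h. The samples at 16 h, 18 h and 32 h therefore had the fewest fragments behind a given FPKM. What 1 fragment is worth follows the scaling of each library, so it is no direct measure of depth. Its part in the differences at those time points was not tested.

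**Figure D2:**
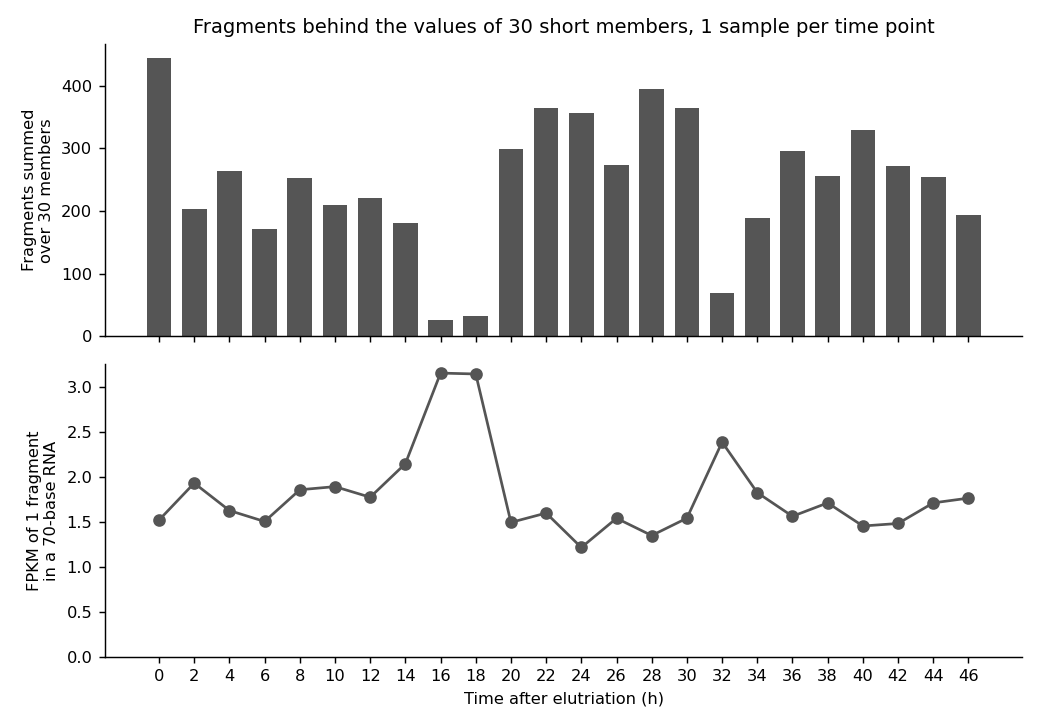
Top, fragments summed over the 30 short members whose values are whole fragments; bottom, the FPKM that 1 fragment is worth in a 70-base RNA, both against hours after elutriation. The sums are lowest at 16 h (26), 18 h (33) and 32 h (69), where 1 fragment is worth most.

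The paper names 16 h and 18 h as irregular samples that differ from their neighbours across the whole transcriptome, and 32 h as a milder case seen by eye. It proposes that such samples arise for technical and not for biological reasons, from a source it could not identify. Members were compared at 16 h and 18 h first, and the origin of their differences was not tested. The mean of log2(FPKM + 1) at 16 h and 18 h was set against the straight line between 14 h and 20 h, and a difference of 2-fold was the threshold; with 1 sample per time point there is no test. Of 80 members, 39 were lower by 2-fold or more, where 7.11% of the 12253 genes averaging 1 FPKM or more were, and 6 were higher, where 8.95% of those genes were. The median difference was −0.93 over the members and 0.14 over all genes. Members also swung widely elsewhere: in 16 other pairs of neighbouring time points between 10.0% and 31.3% of members passed 2-fold in either direction, with 1 to 20 lower and 0 to 23 higher, against 0.171% to 1.12% of all genes. Read against each gene's own range over those 16 pairs, 37 members lay below it, where 28.0% of all genes did, and 5 lay above it, where 43.6% did. In 16 of 80 members both values lay below all 22 other time points, where 19.7% of all genes did so, and in 3 members both lay above, where 30.9% did. A member listed at 0 elsewhere cannot lie below, and SNORD22 and SNORA3B did so only against a value under 0.0001 FPKM. Of the 44 members that never fell under 0.0001 FPKM elsewhere, 14 lay below (31.8%). All genes were not counted under the same restriction, so this share cannot be set against 19.7%. Upper-quartile scaling moved the median difference of all genes from 0.14 to −0.07 and that of the members from −0.93 to −1.01, with 41 members lower and 6 higher.

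The plot of differences at 16 h and 18 h sets each member beside its own range. Box C/D and box H/ACA members gave near counts there: 20 of 41 box C/D members and 12 of 24 box H/ACA members were lower by 2-fold, and 3 and 1 were higher. The median difference was −0.86 in box C/D and −0.98 in box H/ACA. Among the 30 members of whole fragments, 18 were lower and 1 was higher. Zeros followed: 35 members were listed at 0 in the 16 h sample and 35 in the 18 h sample, 21 of them in both. In the 20 samples that leave out 6 h, 16 h, 18 h and 32 h the count was 0 to 11, and it was 8 at 6 h and 18 at 32 h.

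**Figure D3:**
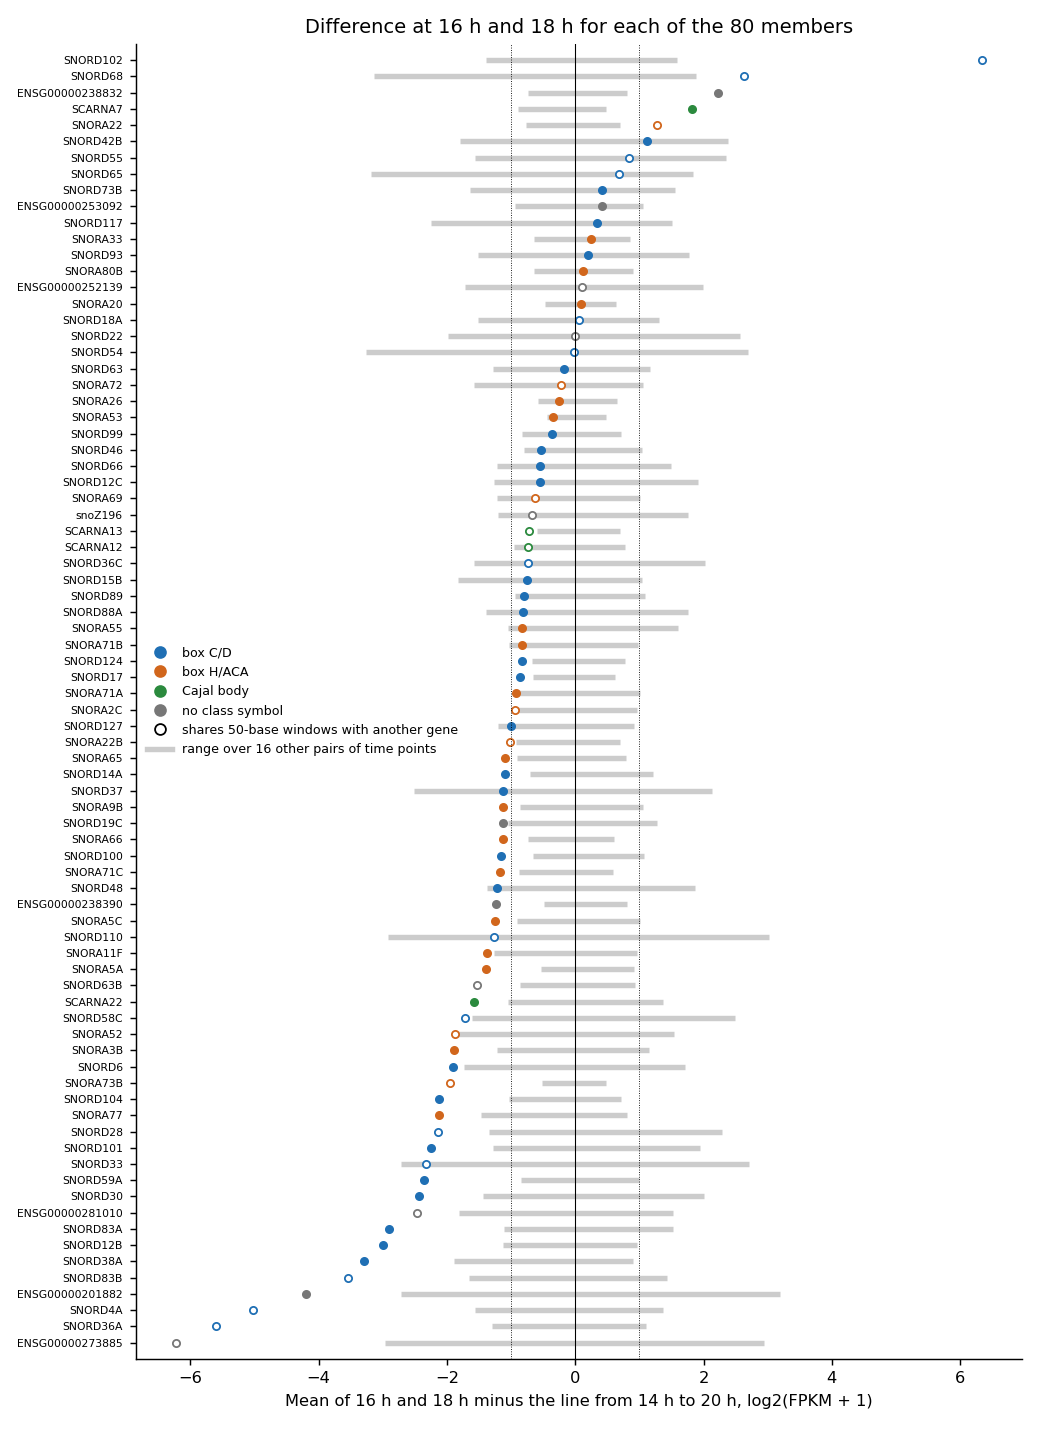
Difference at 16 h and 18 h for each of the 80 members (points, coloured by class, open where the member shares 50-base windows with another gene), in log2(FPKM + 1), with the range over 16 other pairs of time points (grey bars) and dotted lines at 2-fold. Points run from −6.23 (ENSG00000273885) to 6.34 (SNORD102), and 37 lie left of their bars.

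Other short RNAs in the table did not move as a block at 16 h and 18 h. Of 153 other RNAs no longer than the longest member, 35 were lower and 30 were higher by 2-fold, with a median difference of −0.11. Among them 17 of 26 microRNA precursors were lower (median −1.37), whereas 0 of 16 small nuclear RNAs were lower and 7 were higher (median 0.72), and 12 of 35 RNAs of the miscellaneous type were higher (median 0.47). Of the 45 members up to 105 bases, 25 were lower and 3 higher; of the 49 other RNAs up to 105 bases, 19 were lower and 13 higher. No test of these shares was made.

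The members with the largest negative differences were left with few fragments. SNORD4A stood at 13.02 to 137 FPKM at the other 22 time points (median 71.2). It was listed at 0 in the 16 h sample and stood at 5.72 FPKM in the 18 h sample, so the groups did not overlap. In fragments, SNORD4A had 2 at 16 h and 18 h together (95% exact Poisson interval 0.242 to 7.23) and 107 at 14 h and 20 h together (87.7 to 129). All of its 50-base stretches also occur in an antisense transcript, and the difference was −5.02. ENSG00000201882, which shares no stretch with another gene, stood at 7.16 to 203 FPKM elsewhere (median 65.2) and at 3.16 and 3.15 FPKM at 16 h and 18 h. That was 2 fragments (0.242 to 7.23) against 85 (67.9 to 105) at 14 h and 20 h, a difference of −4.19. These intervals cover counting error only. Its near copy ENSG00000273885 ranged from 1.82 to 142 FPKM elsewhere (median 81.5) and was under 0.0001 FPKM at 16 h and listed at 0 at 18 h, a difference of −6.23. Of its 50-base stretches, 95.2% also occur in SCARNA9, so its level cannot be told apart from that RNA's. SNORD36A, in an exon of RPL7A, stood at 9.23 to 62.9 FPKM elsewhere and under 0.0001 FPKM at both time points, a difference of −5.59.

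Both SNORD83 members of RPL3 went the same way. SNORD83A stood at 2.01 to 25.7 FPKM elsewhere (median 9.48) and was listed at 0 in both samples, a difference of −2.90. It had 0 fragments at these time points together (upper limit 3.69) and 17 (9.90 to 27.2) at 14 h and 20 h. SNORD83B stood at 1.78 to 23.2 FPKM elsewhere and under 0.03 FPKM at both, a difference of −3.54. RPL3 itself went from 1073 FPKM at 14 h to 495 and 426 FPKM at 16 h and 18 h and was at 965 FPKM at 20 h, a difference of −1.15. Neither member overlapped its other time points.

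SNORA73B, the most abundant box H/ACA member, was low at both time points but not at 0. It ranged from 18.1 to 53.05 FPKM at the other 22 time points (median 27.9) and stood at 6.46 and 4.89 FPKM at 16 h and 18 h, a difference of −1.95, whereas its differences over the other pairs ran from −0.53 to 0.48. Its host SNHG3 differed by −0.27. SNORD104, in SNHG25, ranged from 15.1 to 53.9 FPKM elsewhere and stood at 9.47 and 3.15 FPKM, 4 fragments (1.09 to 10.2) against 31 (21.1 to 44.0) at 14 h and 20 h. SNHG25 had a difference of −3.29 and was listed at 0 at 18 h. SNORD14A ranged from 3.67 to 17.2 FPKM elsewhere and stood at 4.62 and 7.68 FPKM, inside that range, with a difference of −1.10. SNORD48 stood at 9.02 and 4.50 FPKM against 6.82 to 63.6 FPKM elsewhere, so 1 of its values overlapped. By contrast SNORD99 (difference −0.36), SNORA33 (0.24), SNORA26 (−0.26) and SNORA20 (0.08) did not pass 2-fold, and their values lay inside the range of their other time points, except for SNORD99 at 16 h (10.5 FPKM, below 12.8 FPKM). SNORD99 had 12 fragments (6.20 to 20.96) at 16 h and 18 h and 26 (16.98 to 38.1) at 14 h and 20 h.

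Among the 6 members higher by 2-fold, SCARNA7, ENSG00000238832 and SNORD42B share no 50-base stretch with another gene. SCARNA7, a box C/D type guide for U1 small nuclear RNA, ranged from 2.98 to 9.27 FPKM at the other 22 time points (median 4.66) and stood at 16.1 and 23.6 FPKM at 16 h and 18 h. The groups did not overlap, and the difference was 1.82, against −0.89 to 0.48 over the other pairs. Its host KPNA4, an importin, stood at 70.03 and 75.01 FPKM against 42.6 and 49.2 FPKM at 14 h and 20 h, a difference of 0.65. ENSG00000238832 ranged from 0.344 to 3.84 FPKM elsewhere and stood at 8.73 and 8.02 FPKM, a difference of 2.23, beside a difference of 1.10 in its host BCAP29. SNORA22, whose host is the pseudogene CCT6P1, stood at 3.85 and 4.82 FPKM against 0.399 to 4.44 FPKM elsewhere, so 1 of its values overlapped, and the difference was 1.28. SNORD42B passed with 1 fragment at 16 h and 0 at 18 h.

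The other 2 of the 6, SNORD102 and SNORD68, lie in exons of RPL21 and RPL13 over their whole length. SNORD102 stood at 128 and 162 FPKM at 16 h and 18 h, against 31.9 FPKM at most elsewhere, a difference of 6.34. RPL21 stood at 12.1 and 6.94 FPKM at these time points and at 15.7 and 17.03 FPKM at 14 h and 20 h. SNORD68 stood at 6.55 and 9.46 FPKM, inside its range elsewhere (under 0.0001 to 20.8 FPKM). Values of both were no whole fragments, so reads of the exon and of the small RNA cannot be told apart. The members' summed level was 299.7 FPKM at 16 h and 377 FPKM at 18 h, against 549 to 1037 FPKM in the 20 samples that leave out 6 h and 32 h as well. At 6 h the sum was 445 FPKM, and at 32 h it was 307 FPKM, below the sum at 18 h. Without SNORD102 the sum was 172 FPKM at 16 h and 215 FPKM at 18 h, against 541 to 1025 FPKM in those 20 samples. It was then 433 FPKM at 6 h and 275 FPKM at 32 h.

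The other 3 Cajal body RNAs were low throughout. SCARNA22, a box H/ACA type RNA in NSD2, ranged from 0.328 to 5.07 FPKM elsewhere and was listed at 0 at both 16 h and 18 h, a difference of −1.58, while NSD2 differed by 0.01. SCARNA13, in SNHG10, was listed at 0 at 16 h and stood at 0.645 FPKM at 18 h, against 0.465 to 3.14 FPKM elsewhere. SCARNA12, which lies mostly in exons of PHB2, ranged from 0.314 to 2.80 FPKM elsewhere and stood at 0.592 FPKM at 16 h and under 0.0001 FPKM at 18 h. Neither SCARNA13 (−0.73) nor SCARNA12 (−0.74) passed 2-fold.

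At 32 h more box C/D than box H/ACA members were low, and the difference between the classes was not tested. A value was set against the mean of its neighbours at 30 h and 34 h: 21 of 41 box C/D members and 4 of 24 box H/ACA members were lower by 2-fold, where 1.01% of all genes were. None of the 80 was higher, where 0.449% of all genes were. The median difference at 32 h was −1.02 in box C/D and −0.30 in box H/ACA. Of the 41 box C/D members 15 were listed at 0 at 32 h, and of the 24 box H/ACA members 3. Class and length cannot be told apart here, since 38 of the box C/D members and no box H/ACA member are 105 bases or shorter: 23 of 45 members up to 105 bases and 6 of 35 longer ones were lower at 32 h. Of the 49 other RNAs up to 105 bases, 15 were lower and 5 higher at 32 h. At 6 h, 15 box C/D and 2 box H/ACA members were lower by 2-fold, where 0.865% of all genes were, and 7 and 0 were higher, where 0.571% were. At 16 further time points, none of them next to 16 h or 18 h, 4 to 15 members were lower and 4 to 18 were higher, which is 12.5% to 28.75% of members, where 0.269% to 1.06% of all genes passed in either direction. The plot of class medians shows both classes by time point.

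**Figure D4:**
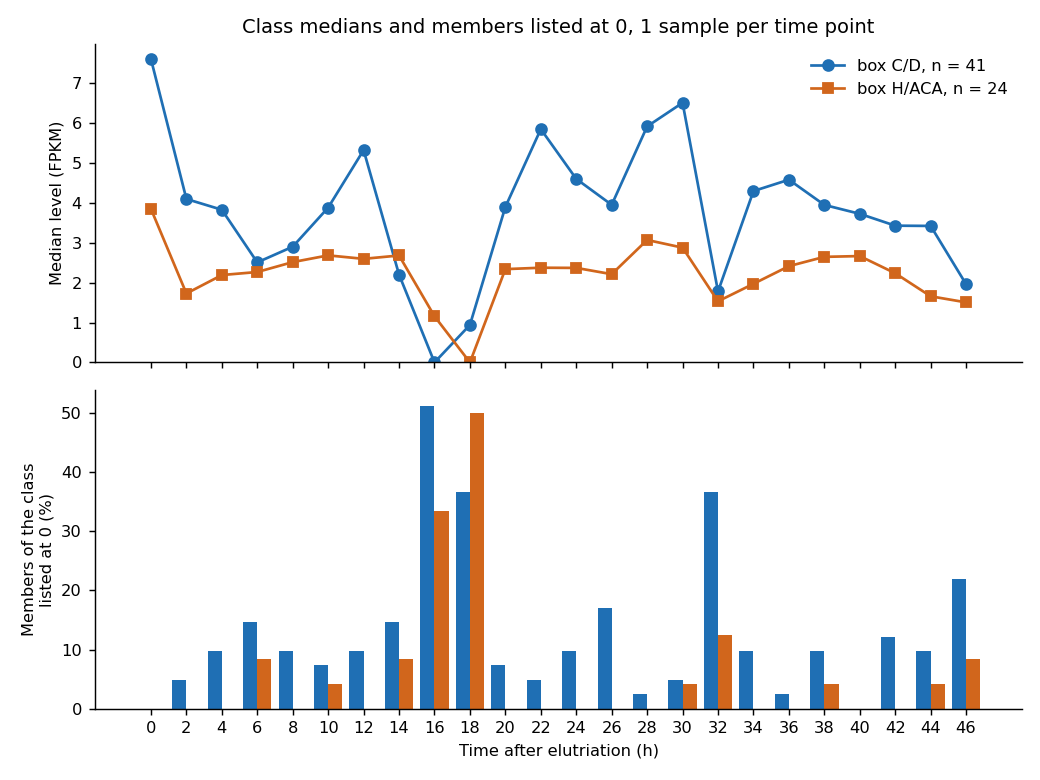
Top, median level (FPKM) of the 41 box C/D (blue circles) and 24 box H/ACA members (orange squares); bottom, percent of each class listed at 0, in the same colours, against hours after elutriation. Both medians are near 0 at 16 h or 18 h, and at 32 h 15 box C/D and 3 box H/ACA members are listed at 0.

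Members within the same host did not always move with each other. In RPS12, SNORD100 differed by −1.16 and SNORD101 by −2.24 at 16 h and 18 h, whereas SNORA33 differed by 0.24, with the host at −1.36. In RPL23A, SNORD4A differed by −5.02 and SNORD42B by 1.12, with the host at −1.24. SNORD42B had 1 fragment at 16 h and 18 h together and 0 at 14 h and 20 h. In RPL7A, SNORD36A differed by −5.59 and SNORD36C by −0.74, with the host at −1.76. SNORD36C was under 0.0001 FPKM at 14 h and at 1.80 FPKM at 20 h, so it had little room to fall. In SNHG1, SNORD28 differed by −2.13, SNORD30 by −2.43 and SNORD22, near 0 from 14 h to 20 h, by less than 0.01, with the host at −0.07. In ZFAS1, SNORD12B differed by −2.99 and SNORD12C by −0.56, with the host at −0.16. SNORD12C had 1 fragment at 16 h and 18 h together and 3 at 14 h and 20 h. In HSPA9, a mitochondrial chaperone gene at 371 FPKM at 14 h and at 884 and 934 FPKM at 16 h and 18 h, SNORD63 differed by −0.17 and SNORD63B by −1.53. SNORA71A, SNORA71B and SNORA71C of SNHG17 differed by −0.92, −0.83 and −1.18, with the host at −0.93. SNORA5A and SNORA5C of TBRG4 differed by −1.39 and −1.25, with the host at −0.91.

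In 46 of the 79 members with a host in the table, member and host were both lower at 16 h and 18 h. In 16 the member was lower and the host higher, in 10 the reverse held and in 7 both were higher. The same split over the other nested pairs was not counted. Of all 80 members 63 were lower, where 5139 of 12253 genes were, so the split does not show that members moved with their hosts. Of the 65 hosts, 20 are ribosomal protein genes, which hold 27 members. Member and host levels were then correlated over the 24 time points, among 508 pairs of nested genes in the table with p-values adjusted over all of them. Of the 79 pairs, 25 had a positive Pearson r with an adjusted permutation p of at most 0.05, where 24.4% of all nested pairs did, and 6 had a negative one, where 6.30% did. Time points follow each other and are not independent samples, so these p-values are too small. Since 16 h and 18 h stand apart from the rest, the pairs were also taken over the other 22 time points, where 6 positive and 0 negative pairs passed, and by rank, where 7 and 0 passed over all 24 and 1 and 0 over the 22. At the 22 time points the median r of the 79 pairs was 0.24.

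SNORD83A and RPL3 had the second highest correlation. Pearson's r was 0.91 (permutation p = 1e-05, the smallest that the permutations can give, adjusted p = 0.000391) and Spearman's rho was 0.46 (adjusted permutation p = 0.120); over the other 22 time points r was 0.74 (adjusted permutation p = 0.00715). For SNORD83A the 2 time points farthest from the median of the host were 16 h and 18 h, as for 44 of the 79 pairs. SNORD83B gave an r of 0.92, and 0.75 over the other 22 time points. SNORD4A and RPL23A had an r of 0.84 (adjusted permutation p = 0.000907), a rho of 0.62 (adjusted permutation p = 0.0202) and an r of 0.85 over the other 22 time points (adjusted permutation p = 0.000677); without 18 h and 32 h, where RPL23A is farthest from its median, r was 0.82. ENSG00000201882 and EIF1AX had an r of −0.42 over all time points and of 0.67 without 16 h and 18 h (adjusted permutation p = 0.0130). SNORD33 with RPL13A and SNORA71A with SNHG17 were the remaining pairs past the threshold at the 22 time points, with an r of 0.63 and 0.57. All of SNORD33 also occurs in transcripts of RPL13A, and SNORD33 and SNORD83B values are no whole fragments. For SCARNA7 and KPNA4, r was 0.69 over 24 time points and 0.24 without 16 h and 18 h (adjusted permutation p = 0.519), and for SNORD104 and SNHG25 it was 0.81 and 0.25 (adjusted permutation p = 0.505).

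**Figure D5:**
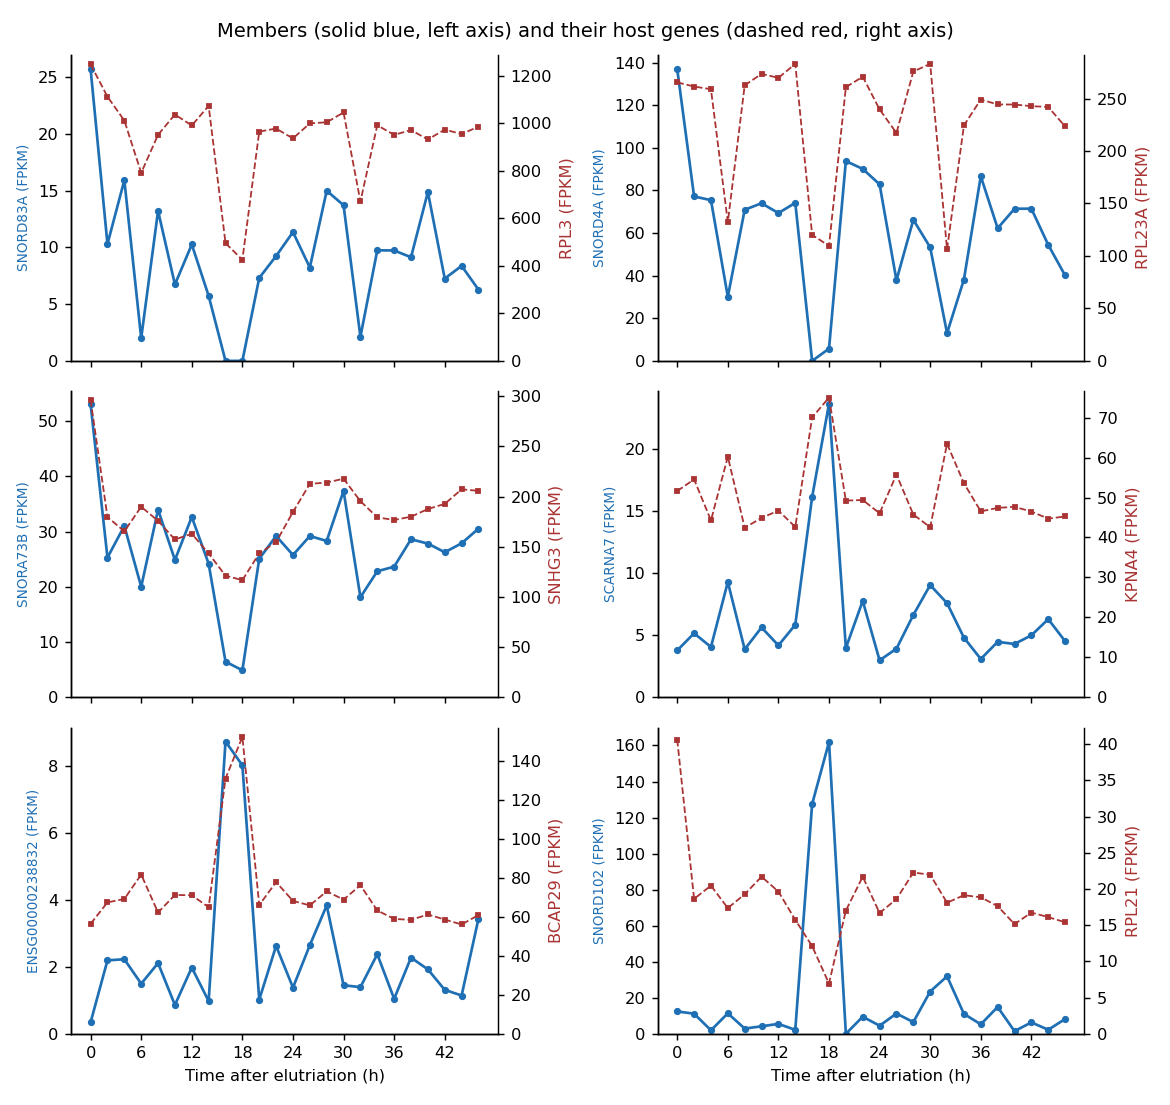
Level in FPKM of 6 members (solid blue, left axes) and of their host genes (dashed red, right axes) against hours after elutriation. SNORD83A and SNORD4A dip with RPL3 and RPL23A at 6 h, 16 h, 18 h and 32 h, SCARNA7 and ENSG00000238832 peak with KPNA4 and BCAP29 at 16 h and 18 h, and SNORD102 peaks where RPL21 is lowest.

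The first sample held the highest levels of many members. Of 80 members, 22 had their highest value at 0 h, where 4.71% of all genes did, 10 of them box C/D and 10 box H/ACA. At 0 h 25 members were higher than at 2 h by 2-fold, where 1.04% of all genes were, and 5 were lower by as much. Later samples also stood above 2 h: at 30 h, the highest such count, 21 members were higher, where 1.85% of all genes were, and 9 were lower. The median difference between 0 h and 2 h, in log2(FPKM + 1), was 0.57 in box C/D and 0.82 in box H/ACA, and 0.02 over the 65 hosts, of which 1 passed 2-fold and 11 had their highest value at 0 h. Among the 153 other short RNAs 19 were higher and 15 lower by 2-fold at 0 h, and 7 had their highest value there. SNORD4A had 99 fragments at 0 h, its highest, and SNORA73B stood at 53.05 FPKM. No member was listed at 0 at 0 h. This time point was looked at after the values were seen.

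A 24 h rhythm was looked for with a JTK type rank test, which compares each course with cosine curves of 12 phases. None of the 80 members passed an adjusted permutation p of 0.05, where 13% of all 12285 genes did. At an unadjusted p of 0.05, where 30.2% of all genes passed, 3 members did: SNORD99 (p = 0.032), SNORA11F (p = 0.041) and SNORD17 (p = 0.049, all by 100000 permutations), with adjusted permutation p of 0.127, 0.149 and 0.161. SNORD63B and SNORA80B were next (adjusted permutation p = 0.207 and 0.223). The 16 members averaging 10 FPKM or more gave 0 adjusted calls as well, where 16.2% of 7169 genes at that level were called.

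The second day was compared with the first at the 12 matched hours with an exact sign-flip test. Matched hours of 1 culture are not replicates, and neighbouring hours are not independent. The p-values of this test therefore describe how steady the direction was. SNORD68 was the 1 member that was higher on the second day and passed (adjusted exact p = 0.0315), where 10.0% of all genes did, and none was lower and passed, where 6.78% did. SNORD68 had a median of 0.447 FPKM on the first day and 6.31 FPKM on the second, and it was higher at 9 of 12 matched hours, with a mean log2 difference of 1.71. SNORD68 shares its whole sequence with an exon of RPL13, and its values are no whole fragments. At an unadjusted p of 0.05, 5 members were higher, where 16.8% of all genes were, and 2 were lower, where 14.4% were. Without 16 h and 18 h and their matched hours the split turned to 2 higher, where 19.5% of all genes were, and 6 lower, where 13.4% were, and the members' median difference went from 0.12 to −0.11.

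The proteins that bind, build and trim these RNAs were counted as fixed lists. All 31 genes were in the table. At 16 h and 18 h 7 of them were higher by 2-fold, where 8.95% of all genes were, and 1 was lower, where 7.11% were, with a median difference of 0.65, against a median of −0.93 in the members. The box C/D core proteins gave NOP58 at 1.18, NOP56 at −0.12, the methyltransferase FBL at −0.42 and SNU13 at −0.42. The box H/ACA core proteins gave the pseudouridine synthase DKC1 at 0.98, GAR1 at 0.99, NOP10 at 0.11 and NHP2 at −1.25. FBL stood at 298 and 324 FPKM at 16 h and 18 h against 414 and 418 FPKM at 14 h and 20 h, and DKC1 at 335 and 319 FPKM against 179 and 152 FPKM. Of the assembly factors, RPAP3 (1.49), NAF1 (1.26), ZNHIT6 (1.24) and NOLC1 (1.19) passed 2-fold among 11. PHAX (1.30), which carries capped small RNA precursors, passed among 6 Cajal body and cap factors, and the 5′ to 3′ exonuclease XRN1 (1.80) passed among 6 genes of intron release and trimming. At 24 h periods NOP56, RUVBL1 and EXOSC10 passed the adjusted rank test, 3 of 31 where 13% of all genes did. Between the days 7 of the 31 were lower and passed the sign-flip test, where 6.78% of all genes did, and 0 were higher, where 10.0% were: SHQ1, NOPCHAP1, COIL, TGS1, the lariat debranching enzyme DBR1, EXOSC10 and TENT4B, with differences from −0.32 (COIL) to −0.16 (SHQ1). The first day includes 16 h and 18 h, where each of these 7 was higher, by 0.19 (DBR1) to 0.88 (COIL). The list was not tested again without these time points or with median centring. With median centring 1170 of 12285 genes were lower and passed, against 833.

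The labelled cell line was checked by its markers. All 12 erythroid markers were in the table, with a summed level of 4070 to 9153 FPKM, and 2 of 5 fibroblast markers, COL1A2 (median 3.04 FPKM) and VIM (median 135 FPKM). At 16 h and 18 h 7 of the 12 erythroid markers were lower by 2-fold, where 7.11% of all genes were, among them HBG2, HBG1 and HBA2. Only 1 was higher, where 8.95% were. Their part in the members' differences was not tested.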

How the data were processed

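Total RNA of 24 K562 samples, 1 per time point, was sequenced by the authors on an Illumina instrument. The submitters' processing notes name STAR, Cufflinks and Cuffnorm with the genome build GRCh37, without versions. The authors deposited FPKM values (fragments per kilobase scaled to library size, estimated by Cufflinks, which can divide reads shared by a small RNA and its host exon). The authors also deposited a cleaned table of Z-scores (a score per gene over the time points, quantile normalized so that every column holds the same set of values), which was used for 1 alternative. Library kit and strand setting are not given in the sources used here.

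Members were the table's genes of type snoRNA or scaRNA in GENCODE 29 (GRCh38), used only for type, name, length, host and sequence. Members, gene lists and tests were chosen with earlier results of these data known. Values were compared as log2(FPKM + 1), which understates the change of low genes, over genes averaging 1 FPKM or more. Rank tests for rhythm and correlations used 100000 permutations, and the day comparison all 4096 sign patterns. Benjamini-Hochberg adjustment ran over all genes or nested pairs. Named members were the 5 with the highest median in each box class, all SCARNA genes, the 5 largest differences each way at 16 h and 18 h, the 5 smallest rhythm p-values, members called between days, the 5 most often at 0, known processing RNAs and members sharing a host; a few of these genes and markers are not reported here. Whole fragments were recovered after the values were seen, with exact Poisson 95% intervals that cover counting error only. Depth per sample was unknown. Summed FPKM per sample ran from 456791 to 591309. Analyses ran in Python 3.11.15 with numpy 2.4.6, pandas 2.3.3 and scipy 1.17.1, and were tested on simulated data. No column was left unused.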

Additional observations from a re-analysis of the deposited data

How the results depend on the processing

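No replicate block could be fitted because each time point has 1 sample; the days were compared at matched hours. The counts of members lower and higher at 16 h and 18 h (39 and 6) came to 16 and 3 at 4-fold, to 12 and 1 of the 16 members averaging 10 FPKM or more, and to 18 and 1 of the 30 members of whole fragments. Other settings for these counts, which were the pseudocount, 1.5-fold, scaling, filter and quantile normalization and, added later, each of 16 h and 18 h alone, kept them within 1.5 times. The pseudocount of 0.1 gave 57 lower, and quantile normalization 27 lower. Median centring moved the split over all genes from 1097 higher and 871 lower to 794 and 1129, and upper-quartile scaling to 568 and 1321; the members gave 6 and 41 under both. At 6 h (8 higher, 22 lower) the pseudocount of 0.1 gave 13 higher, 4-fold gave 1 and 8, a mean of at least 10 FPKM gave 3 and 6, and members of whole fragments gave 4 and 11. At 32 h (0 higher, 29 lower) the pseudocount of 0.1 gave 6 higher, 1.5-fold gave 6 and 45, 4-fold gave 13 lower, a mean of at least 10 FPKM 7 lower, quantile normalization 1 higher, and members of whole fragments 12 lower.

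By the rank test 0 members passed at periods of 20 h (1.44% of all genes called) and 28 h (3.34%), as at the reported 24 h. At such low shares 0 of 80 tells little. None passed without 16 h and 18 h (16.2%), in the cleaned table (11.6%) or with upper-quartile scaling (13.5%). Of the 16 members averaging 10 FPKM or more 0 passed, where 16.2% of 7169 such genes did. In the settings with all 12285 genes, 1 to 6 members passed at an unadjusted permutation p of 0.05, where 2570 to 4153 genes did. The 1 member called between the days was lost (0 called) at a mean of at least 10 FPKM and among members of whole fragments. Over all genes the days split into 1234 higher and 833 lower, and into 1135 and 1170 with median centring and 1101 and 1107 with quantile normalization, where the members stayed at 1 and 0. Of the host pairs (25 positive, 6 negative), 6 and 0 passed without 16 h and 18 h, 7 and 0 with Spearman's rho (1 and 0 with rho without 16 h and 18 h), 7 and 2 where both genes averaged 10 FPKM, and 15 positive among members with no shared window. Values listed at 0 (177) came to 403 when every value below 1 FPKM was counted and to 107 without 16 h and 18 h, and members with a zero (53) to 29 without them. The restriction to whole fragments or unshared windows was chosen after seeing the data, and fewer members enter those counts. With 1 sample per time point, single differences have no replicate check, and few fragments stand behind most values.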

Other observations

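Near copies among the members were compared at 16 h and 18 h, as differences from the line between 14 h and 20 h, over 6 pairs. Both copies were lower in every pair except SNORA22 and SNORA22B. ENSG00000201882 and ENSG00000273885 (92.9% identical) differed by −4.19 and −6.23. SNORD83A and SNORD83B (78.4%) differed by −2.90 and −3.54, and SNORA71A and SNORA71C (83.1%) by −0.92 and −1.18. SNORD12B and SNORD12C, which share 69 of 93 aligned bases, differed by −2.99 and −0.56, and SNORD63B and SNORD63 (71.2%) by −1.53 and −0.17. SNORA22 and SNORA22B share 128 of 138 aligned bases (92.8%), and SNORA22 differed by 1.28 while SNORA22B, in the chaperonin gene CCT6A, differed by −1.02. CCT6A itself differed by 0.86 and the host of SNORA22, CCT6P1, by −0.05. Of their 50-base stretches, 43.5% in SNORA22 and 16.9% in SNORA22B also occur in the other copy or in SNORA22C, so reads of the copies cannot be fully told apart. These values have no replicate, and no difference between copies was tested.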
